A study of Mus musculus with 16 samples.

Results

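Oocytes grown in follicle culture were compared with oocytes ovulated by hormone-treated adult mice, bin by bin across the autosomes. The comparison used 8 of the 16 libraries of the series: 4 pools of in vitro follicle culture oocytes (IFC1 to IFC4) and 4 pools of superovulated adult oocytes (SOA1 to SOA4), with the sample as the unit. All donors were F1 females of C57BL/6J X CBA/Ca. The IFC samples carry an age label of 23 days, and their oocytes grew inside single preantral follicles that had been taken from younger females and cultured with FSH, followed by an ovulatory stimulus of hCG and EGF. The SOA samples came from females 10 weeks old that were injected with eCG and then hCG. The samples are labelled as oocytes, and by the study's methods each library held a pool of MII oocytes, which are arrested at the second meiotic metaphase, although the extraction label speaks of a single blastocyst. Differences between single oocytes or donors within a pool were averaged. Age of the donor, growth in culture and hormone exposure all differ between the 2 groups and cannot be told apart in this comparison. The other 8 libraries, 5 of superovulated prepubertal females (SO, 23 days) and 3 of adults that ovulated without hormones (IV, 10 weeks), took no part in the tests between IFC and SOA. They set the bin classes, serve as reference levels and were compared with each other at the called bins.

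Mouse oocytes gain most of their DNA methylation after birth, while they grow inside the follicle. The enzyme DNMT3A with its partner DNMT3L adds methyl groups to CpG sites, mainly over transcribed gene bodies marked by SETD2, so that fully grown oocytes hold long methylated domains over active genes and leave most other DNA unmethylated. Growth in culture therefore covers the period in which the pattern is set.

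Methylation was read as the percent of methylated calls in fixed, non-overlapping 10-kb bins of the GRCm38 autosomes. Of 246266 bins, 137428 (55.8%) had at least 10 calls in each of the 8 samples and were tested. The libraries held 5311009 to 8231898 calls in IFC and 5218053 to 6165152 in SOA1 to SOA3, whereas SOA4 held 23065411. The median tested bin had 26 to 41 calls in these 7 shallower libraries and 115 in SOA4. A level of 50% carried a 95% Wilson interval of 32.1% to 67.9% at 26 calls and of 23.7% to 76.3% at 10 calls, which covers counting error only. Oocyte identity was checked at imprint control regions. Pooled over 13 windows at starts of maternally methylated imprinted genes, among them Mest, Peg3, Snrpn and Plagl1, methylation was 94.9% to 95.1% in the IFC samples and 94.8% to 97.4% in the SOA samples. The windows at Grb10 and Nespas read 2.69% or less in both groups when samples were pooled. These windows were centred on annotated starts and may lie outside the imprint control region, so their values are no reading of the imprint. The paternally methylated windows upstream of H19 and Meg3 held 0% to 5.97% in IFC and 0% to 7.02% in SOA. Oocyte DNA is methylated at the maternal and unmethylated at the paternal kind of window, whereas somatic DNA lies in between at both.

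The average level of methylation over all tested bins differed by less than the spread between samples. The mean over all tested bins was 42.03% in both groups, with an SD of 0.915 over the 4 IFC samples and of 1.11 over the 4 SOA samples (exact p = 1 by two-sided permutation of the samples). Bins were then split by their mean in the SO and IV libraries, which belong to neither group: 59641 unmethylated bins (below 20%), 41460 intermediate bins and 36327 methylated bins (above 80%). Methylated bins held 92.0% ± 1.17 in IFC and 92.5% ± 0.674 in SOA (SD, n = 4 each, exact p = 0.543). Intermediate bins held 46.3% ± 2.26 and 47.7% ± 2.01 (exact p = 0.4). IFC4 had the lowest value of the IFC samples in both of these classes. In unmethylated bins the level was 8.44%, 8.95%, 8.2% and 8.99% in the 4 IFC samples and 8.33%, 7.77%, 6.98% and 6.39% in the SOA samples. IFC was thus 1.28 points higher, against SDs of 0.386 in IFC and 0.855 in SOA (exact p = 0.0571, adjusted p = 0.229 over the 4 means). SOA1 lay inside the IFC range. The smallest p that 4 against 4 samples allow is 0.0286. Without SOA1 the difference was 1.6 points, and the exact p reached the 0.0286 that is also the smallest possible for 4 against 3 samples. Without any other single sample the exact p ran from 0.0571 to 0.114. With at least 20 calls per bin the difference was 0.886 points (exact p = 0.114).

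**Figure D1:**
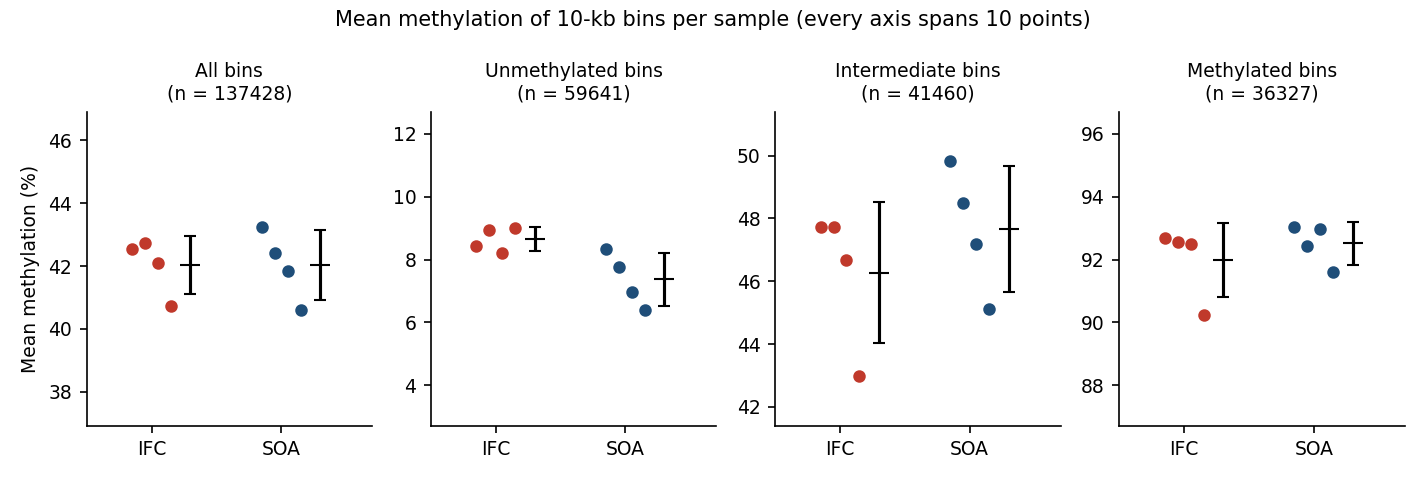
Mean methylation of the tested bins in each IFC (red) and SOA (blue) sample, for all bins and for the unmethylated, intermediate and methylated classes. Points are samples, horizontal marks are group means and bars are 1 SD (n = 4). The groups overlap in every panel, and the unmethylated class shows the highest SOA sample, 8.33%, inside the IFC range of 8.2% to 8.99%.

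A small set of bins differed by far more than the replicates did. By limma on the sample percentages, 1441 of the 137428 bins (1.05%) passed an adjusted p of 0.05. In 915 bins (0.666%) IFC was lower by at least 20 points, and in 412 bins (0.3%) it was higher by at least 20 points. The median difference was -38.5 points in the bins lower in IFC and 37.0 points in the bins higher in IFC, and the extremes were -66.1 and 69.7 points. The 4 IFC samples did not overlap the 4 SOA samples in 910 of the 915 bins and in 409 of the 412 bins. Over all tested bins, 3.55% and 3.60% separated the groups in these 2 directions. The called bins were chosen on the same samples, so their separation follows largely from that choice. Of the tested bins, 63.6% differed by less than 5 points. Complete switches were rare. Only 5 bins went from above 80% in SOA to below 20% in IFC, 1 in Etl4, 1 in Mapk10 and 3 outside protein-coding genes, and none went the opposite way. These 5 were picked out after their values had been seen.

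The number of called bins depends on the test and on single libraries. The logistic model of the calls, which treats each call as independent, called 15649 bins, and a quasi-binomial F test with a dispersion per bin called 329. The median dispersion between replicates was 1.31 times the binomial one. Leaving out SOA4, the deepest library, left 409 called bins, leaving out SOA1 left 502, and leaving out any other single sample left 734 to 957.

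**Figure D2:**
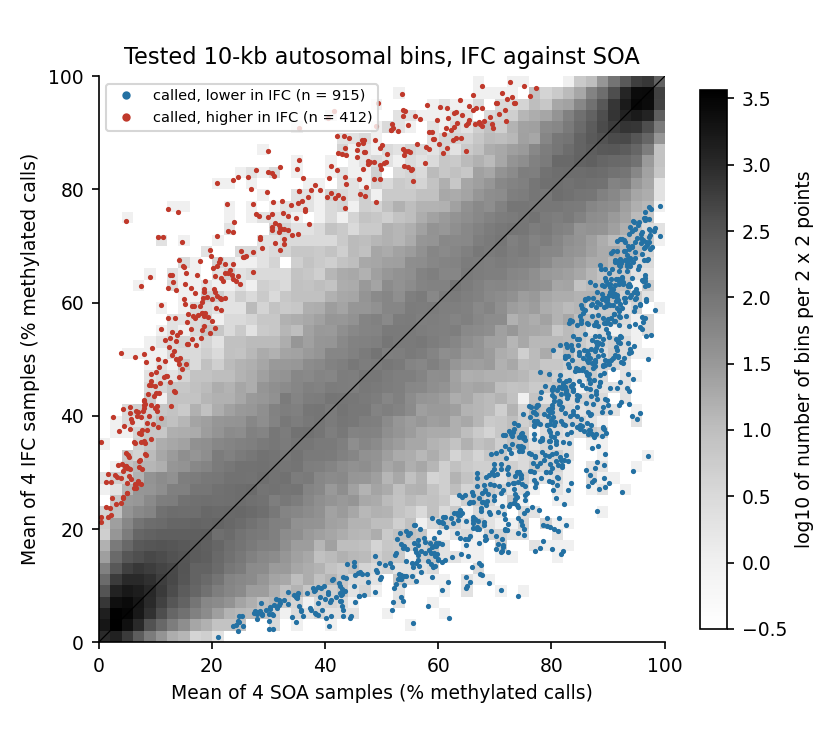
Mean percent of methylated calls of each tested 10-kb bin in the 4 IFC samples (vertical) against the 4 SOA samples (horizontal). Grey shade is the number of bins on a log10 scale, blue and red points are the 915 bins called lower and the 412 called higher in IFC, and the line marks equality. Most bins lie near the line at both ends, and called bins lower in IFC mostly have high SOA levels.

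Most called bins fell in the intermediate class. Such bins were 30.2% of the tested bins, but 688 of the 915 bins lower in IFC (75.2%) and 335 of the 412 bins higher in IFC (81.3%) were among them. This is a description, since SO and IV themselves lay apart on average in the called bins, and the mean of levels that lie apart tends to fall between the class limits. Methylated bins gave 197 called lower and 25 called higher, and unmethylated bins 30 and 52. The 2 directions also lay in different surroundings. Bins higher in IFC overlapped a protein-coding gene in 81.8% of cases, against 58.8% of all tested bins and 51.0% of the bins lower in IFC. A transcription start lay in 21.2% of all tested bins, but in 11.1% of the bins lower and in 16.5% of the bins higher in IFC. The median number of CpGs was 93, 100 and 97 in bins lower, bins higher and all tested bins. With the bins ranked by CpG number and cut into 5 sets, 0.315% were called lower in IFC in the set richest in CpGs (median 163), while the other 4 sets held 0.688% to 0.778%. The share called higher lay between 0.274% and 0.321% in all 5 sets.

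Called bins clustered along the genome. Of the 915 bins lower in IFC, 383 (41.9%) touched another such bin, and of the 412 bins higher in IFC, 177 (43.0%) did. Neighbouring bins outside these 2 sets leaned the same way, though some may have passed the adjusted p with a smaller difference. Of 912 such neighbours of bins lower in IFC, 842 (92.3%) were also lower, against 46.2% of all tested bins. Their median difference was -15.9 points. Of the 436 neighbours of bins higher in IFC, 386 (88.5%) were higher, against 53.8% of all tested bins, with a median of 14.0 points. By chromosome, the share called lower ran from 0.236% on chromosome 16 to 1.15% on chromosome 15. The share called higher ran from 0.0899% on chromosome 17 to 0.854% on chromosome 18, where the genes Tcf4 and Zfp521 described below hold many of the bins.

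The longest runs show the pattern at the level of DNA. In the direction lower in IFC, the longest was a run of 8 adjacent bins (80 kb, chr5:66070001-66150000) in Rbm47, which encodes an RNA-binding protein that assists C-to-U RNA editing. Its mean was 24.6%, 23.8%, 30.3% and 34.1% in the IFC samples and 85.9%, 75.8%, 79.2% and 77.8% in the SOA samples. The highest IFC sample lay far below the lowest SOA sample. Next came a run of 6 bins (60 kb, chr11:88420001-88480000) in Msi2, encoding a Musashi RNA-binding protein that controls translation, with 41.5% ± 5.77 against 81.1% ± 6.38 (SD, n = 4 each). Several runs of 5 bins followed, of which the one with the largest mean difference was in Camta1, encoding a calmodulin-binding transcription activator, with 16.7% ± 4.65 against 68.5% ± 4.8. Higher in IFC, the longest runs were 9 and 8 bins in Tcf4, with 90.8% ± 3.05 against 54.2% ± 8.27 and 77.7% ± 1.15 against 46.9% ± 6.11. A run of 7 bins (70 kb, chr5:25020001-25090000) lay in Prkag2, which encodes a regulatory subunit of AMP-activated protein kinase, with 66.7% ± 6.68 against 22.1% ± 3.65. A run of 7 bins in Atrnl1, encoding an attractin-like membrane protein, followed with 66.96% ± 3.29 against 25.3% ± 2.98.

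To show the kind of sequence involved, 1 stretch of 200 bases is printed from the most changed bin of 4 of these runs, in each case the stretch with the most calls in both groups outside exons. All 4 are introns on GRCm38, plus strand, 5′ to 3′, with CpG dinucleotides in capitals. They hold 6 to 9 CpGs each.
Rbm47, chr5:66125464-66125663: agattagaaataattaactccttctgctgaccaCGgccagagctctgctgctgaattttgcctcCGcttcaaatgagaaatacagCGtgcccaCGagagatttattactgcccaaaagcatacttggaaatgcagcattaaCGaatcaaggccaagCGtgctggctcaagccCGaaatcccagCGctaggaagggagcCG
Msi2, chr11:88462724-88462923: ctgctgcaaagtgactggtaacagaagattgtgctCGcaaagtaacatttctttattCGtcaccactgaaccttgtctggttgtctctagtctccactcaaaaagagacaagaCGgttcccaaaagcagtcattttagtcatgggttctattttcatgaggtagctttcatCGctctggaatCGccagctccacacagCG
Prkag2, chr5:25059330-25059529: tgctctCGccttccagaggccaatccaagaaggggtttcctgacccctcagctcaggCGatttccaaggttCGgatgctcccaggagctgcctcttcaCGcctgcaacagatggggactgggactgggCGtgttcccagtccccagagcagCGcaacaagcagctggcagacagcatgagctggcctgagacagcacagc
Atrnl1, chr19:57700707-57700906: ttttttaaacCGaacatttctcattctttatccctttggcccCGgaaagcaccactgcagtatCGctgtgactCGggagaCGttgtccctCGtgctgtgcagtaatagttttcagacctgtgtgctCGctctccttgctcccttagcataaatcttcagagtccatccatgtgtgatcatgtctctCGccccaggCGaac
In the Rbm47 stretch 5 of 25 calls were methylated in the pooled IFC samples (20.0%, Wilson interval 8.86% to 39.1%) and 20 of 20 in the SOA samples (interval 83.9% to 100%). In the Msi2 stretch the counts were 4 of 11 in IFC and 11 of 11 in SOA. In the Prkag2 stretch 21 of 36 calls (58.3%) were methylated in IFC and 2 of 34 (5.88%) in SOA, and in the Atrnl1 stretch 15 of 23 (65.2%) and 1 of 30 (3.33%). Single stretches thus followed their bins, although each rests on few calls and its place was chosen for its calls, inside bins chosen for their difference. The 10-kb bins around them had 18 to 288 calls per sample. In the Rbm47 bin the level was 18.97%, 29.2%, 34.1% and 30% in IFC against 88.0%, 83.3%, 96.0% and 93.5% in SOA (difference -62.2 points). In the Prkag2 bin it was 60.5%, 73.0%, 56.3% and 65% against 7.41%, 20.9%, 14.3% and 9.72% (difference 50.6 points). No sample crossed into the other group in either bin.

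Among single bins, the 5 largest decreases in IFC lay between -66.1 and -64.8 points. Only 1 of them overlapped a protein-coding gene, Camta1, with 9.33%, 1.72%, 9.21% and 12.3% in IFC and 77.1%, 81.6%, 73.5% and 64.3% in SOA (adjusted p = 0.00394, limma). The 5 largest increases all lay in genes. They were in Slit2, a ligand of Robo guidance receptors, with 74.5% ± 10.2 in IFC and 4.86% ± 5.73 in SOA, in Cnr1, the cannabinoid receptor gene, with 76.5% ± 13.2 and 12.2% ± 4.29, and in Sema3a, a secreted guidance factor, with 76.01% ± 7.42 and 14.01% ± 7.44 (SD, n = 4 each). The other two were in Pam, a peptide-amidating enzyme, with 71.7% ± 16.7 and 10.5% ± 7.16, and in Drd3, the D3 dopamine receptor gene, with 71.7% ± 18.5 and 11.3% ± 9.98. In Drd3 the IFC levels ran from 46.9% to 90.1%. The fewest calls in any sample were 10 in the Slit2 and Pam bins, 14 in Sema3a, 29 in Cnr1 and 30 in Drd3. In the bins of the 5 largest decreases they ran from 12 to 34. All these bins were picked for the size of their difference.

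Bins called lower in IFC overlapped 196 of the tested genes and bins called higher overlapped 165, with 51 and 29 genes holding at least 3 such bins. Genes with bins of both directions were few: Kcnip4, Asic2 and Cep128, picked out for this count after their values had been seen, held 1 of each. The 8 genes with the most bins lower in IFC were Msi2 (21 of 39 tested bins), Myo16 (15 of 43), Etl4 (14 of 49), Rims1 (11 of 29), Mapk10 (11 of 28), Rbm47 (10 of 17), Sox5 (9 of 92) and Astn1 (8 of 25). Besides the 2 RNA-binding proteins they include an unconventional myosin (Myo16), a scaffold of synaptic release sites (Rims1), a neuronal JNK kinase (Mapk10), a SOX transcription factor (Sox5) and an adhesion protein of migrating neurons (Astn1). Higher in IFC were Tcf4 (21 of 35), Zfp521 (16 of 29), Prkag2 (14 of 25), Klf12 (13 of 37), Npas3 (10 of 76), Atrnl1 (9 of 49), Pam (7 of 22) and Mark1 (7 of 11). Tcf4, Zfp521, Klf12 and Npas3 encode transcription factors, and Mark1 a kinase that acts on microtubule-associated proteins. Long genes hold more bins and so reach such a list more easily.

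Within these genes the difference mostly ran along the body, and in many of them the bin with the annotated start was low in both groups. In Msi2 (chr11:88339382-88718513, minus strand) the bin with the annotated start held 1.8% in IFC and 2.24% in SOA, and the 50 kb upstream held 3.79% and 4.54%. All 39 bins of the body together held 45.6% and 74.3%, and 37 of them were lower in IFC. Called bins were spread from 53.5 to 374 kb downstream of the start, or over 87.0% of the gene. Zfp521, a zinc-finger transcription factor gene, showed the mirror image: 2.84% and 1.64% at the start, 64.0% and 28.5% over the 29 bins of the body, and 5.43% and 6.83% in the 50 kb downstream. All 29 bins of its body were higher in IFC, as were all 37 in Klf12, all 35 in Tcf4, all 22 in Pam and all 11 in Mark1. Over all tested bins 53.8% were higher and 46.2% lower in IFC. The named genes were chosen for their called bins in the same samples, so such counts of bins follow largely from that choice. In Klf12 the body held 9.22% in SOA and 34.4% in IFC. In other genes the called bins lay close together. In Etl4, a gene of vertebral column development, they lay between 615 and 815 kb from the start, 23.3% of its length, although 37 of its 49 tested bins were lower in IFC. In Atrnl1 they lay between 34 and 124 kb, 19.1% of its length, and 27 of 49 tested bins were higher. Other starts lay apart: Rbm47 held 26.8% ± 10.3 there in IFC and 58.2% ± 16.9 in SOA, Myo16 42.7% ± 15.5 and 73.4% ± 13.5, and Mapk10 44.9% ± 5.84 and 58.8% ± 10.3 (SD, n = 4 each). Some flanks lay apart too. The 50 kb downstream of Mapk10 held 72.2% in IFC and 39.8% in SOA, opposite in direction to its body. The 50 kb upstream of Myo16 held 32.9% and 52.9%, and that of Rbm47 8.67% and 25.8%. Downstream of Astn1, 2 tested bins held 24.1% and 42.2%. Flanks of the 8 genes higher in IFC lay less far apart.

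**Figure D3:**
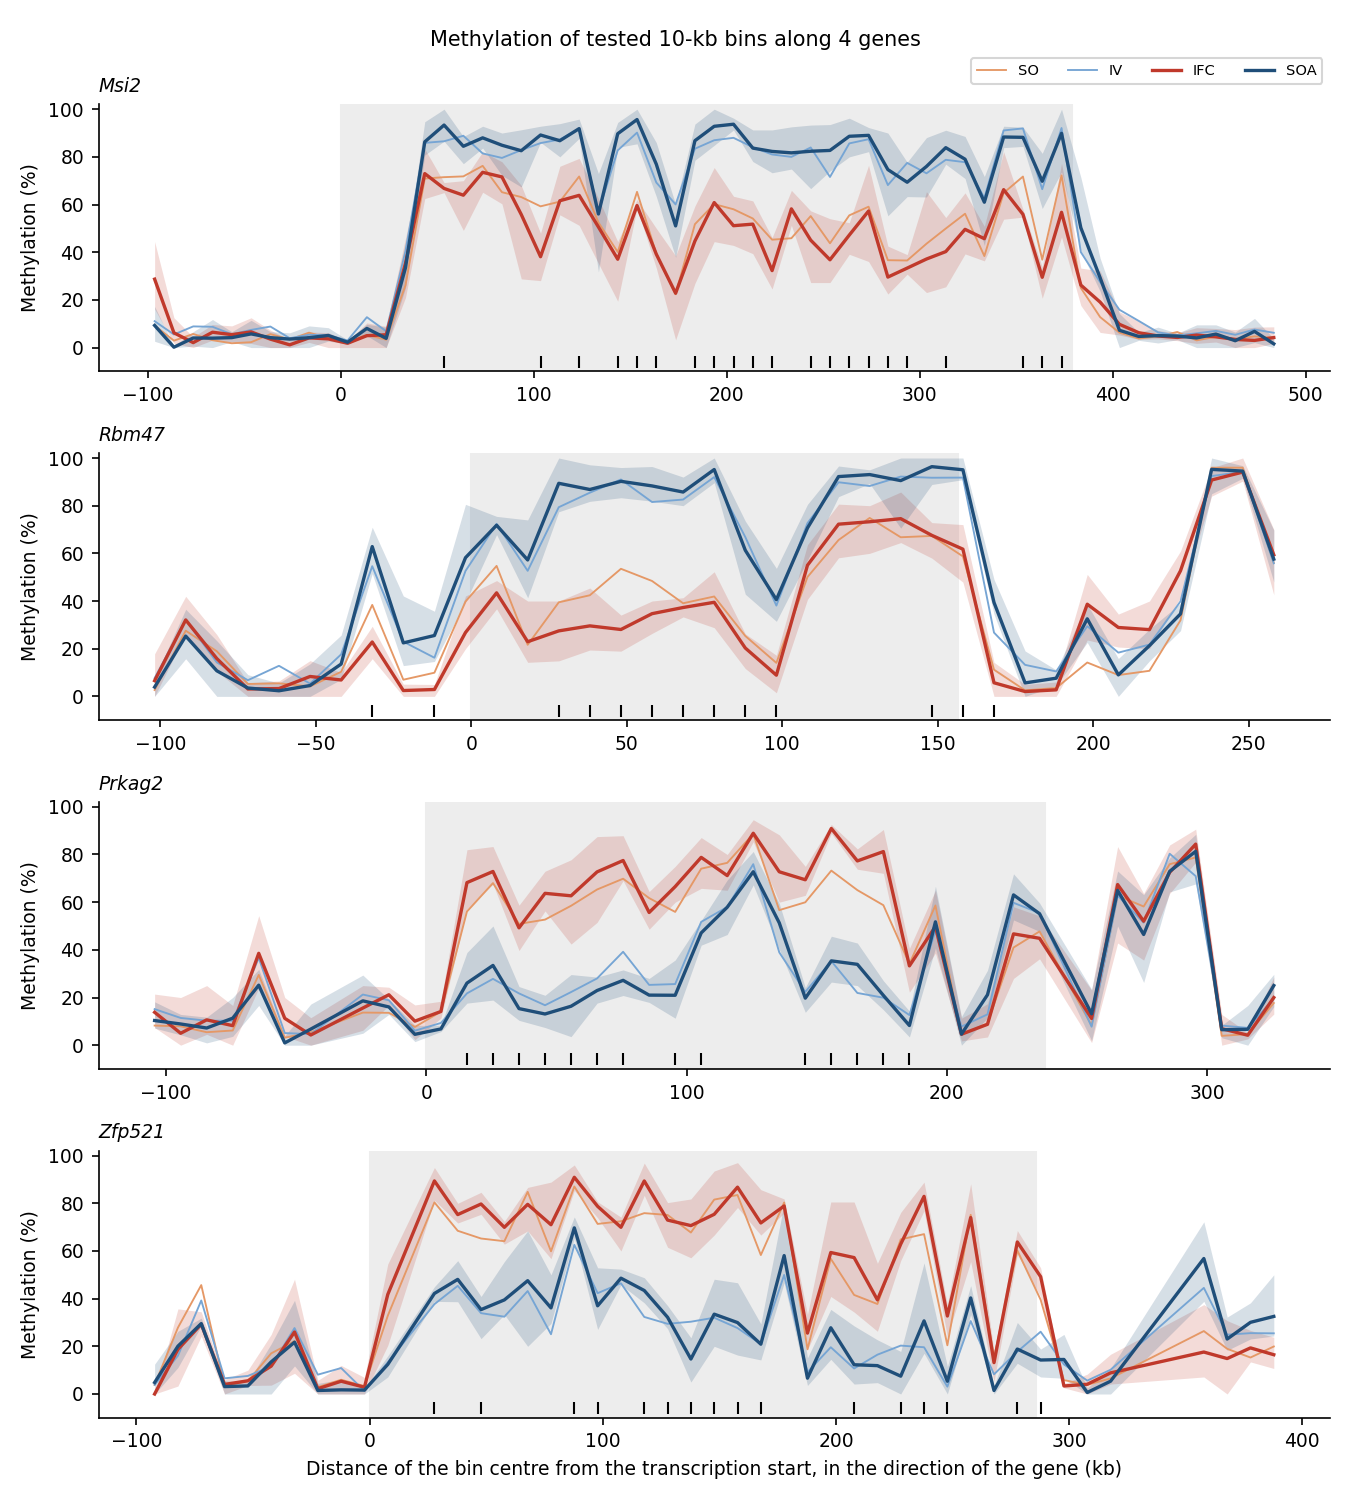
Methylation of tested 10-kb bins along Msi2, Rbm47, Prkag2 and Zfp521, by distance from the transcription start in kb, with the gene body shaded. Lines are means of IFC, SOA, SO and IV samples, bands span the lowest to the highest of the 4 IFC or SOA samples, black ticks mark bins called with a difference of at least 20 points, and lines bridge bins that were not tested. IFC lies below SOA over the body of Msi2 and Rbm47 and above it in Zfp521 and most of Prkag2, while the 50 kb upstream of Msi2 stay low in all groups.

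Over whole gene bodies the balance of directions differed from that of the bins. Of 16555 protein-coding gene bodies with enough calls, 66 (0.399%) were called lower in IFC and 85 (0.513%) higher. With weights by calls, 188 (1.14%) were called lower and 448 (2.71%) higher. That fit gives SOA4 the most weight in its group, with 23065411 calls against 5218053 to 6165152 in SOA1 to SOA3. SOA4 also had the lowest mean of the SOA samples over all tested bins, 40.6%. Its part in the weighted counts was not tested. With samples weighted equally, the median difference over all genes was 0.499 points. The body of Rbm47 had 45.4%, 34.0%, 40.0% and 44.5% in IFC and 84.1%, 76.8%, 70.5% and 77.1% in SOA (difference -36.2 points, SE 5.03, adjusted p = 0.0167, limma). Zfp521 had 64.1%, 67.5%, 66.5% and 60.8% in IFC and 29.97%, 30.7%, 26.6% and 28.3% in SOA (35.8 points, SE 4.08, adjusted p = 0.0107, limma). Klf12 had 36.8%, 38.2%, 33.2% and 32.8% in IFC and 11.3%, 11.4%, 8.77% and 6.89% in SOA (25.7 points, SE 2.48, adjusted p = 0.00700, limma). The groups were far apart in all 3. Msi2 (-27.6 points, adjusted p = 0.0316), Mapk10 (-27.7, 0.0218), Tcf4 (28.4, 0.0207), Prkag2 (26.9, 0.0218), Pam (19.6, 0.0167) and Mark1 (31.7, 0.0176) were also called by limma. Rims1 (-21.9 points, adjusted p = 0.0517), Astn1 (-16.4, 0.0660), Myo16 (-21.1, 0.0742), Etl4 (-16.3, 0.0947), Sox5 (-15.4, 0.159), Npas3 (14.4, 0.233) and Atrnl1 (9.5, 0.316) did not pass over the whole body.

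The calls on gene bodies leaned on having all 8 samples. Any 7 samples left 11 (without SOA1) to 73 (without IFC4) called gene bodies in place of 151. Klf12 stayed called in all 8 of these fits and Zfp521 in 7, Pam in 4, Rbm47 in 3, Tcf4 in 2, and Prkag2 and Mark1 in 1 each, whereas Msi2 and Mapk10 were called in none, with adjusted p from 0.0645 to 0.0958 for Msi2. The sizes moved little: the difference of Msi2 stayed between -29.1 and -25.6 points, that of Mapk10 between -29.2 and -26.2, and that of Tcf4 between 26.9 and 30.2.

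**Figure D4:**
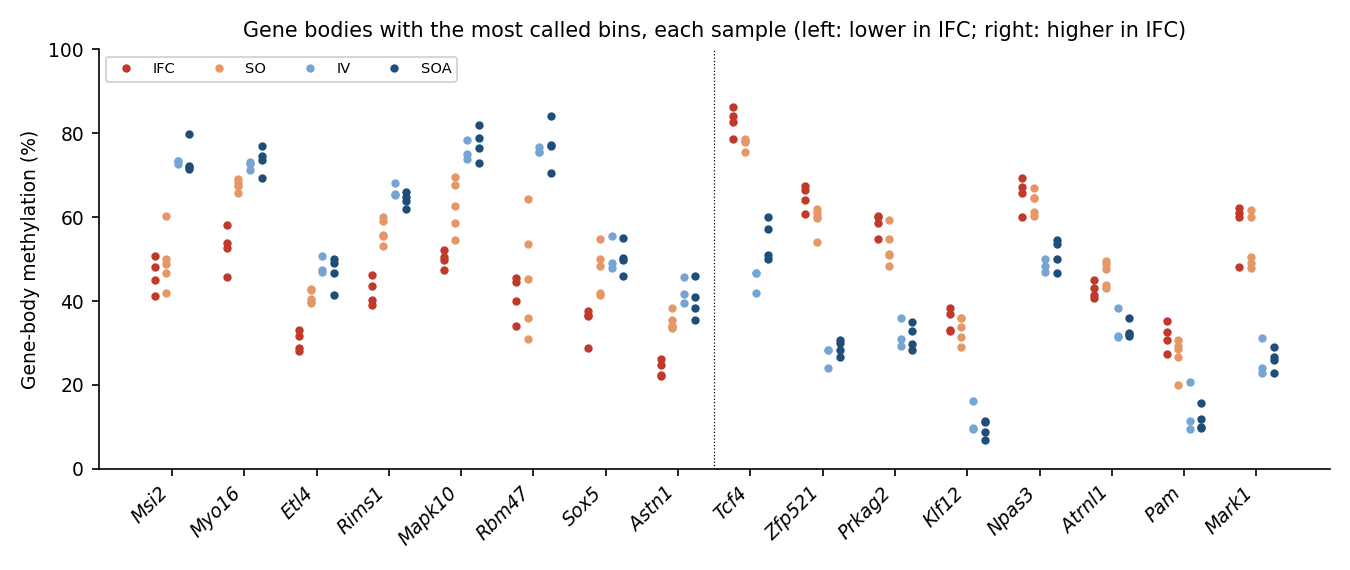
Methylation of 16 gene bodies (percent of methylated calls) in every sample of the 4 groups, with the 8 genes with most bins lower in IFC left of the dotted line and the 8 with most bins higher in IFC right of it. Each point is 1 sample. IFC and SOA samples do not overlap in any of the 16 genes, IV lies near SOA (below it in Tcf4), and SO lies near IFC in most genes on the right but between IFC and SOA in several on the left. The genes were chosen for their bins called between IFC and SOA, so the separation of these 2 groups follows largely from that choice.

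The SO and IV libraries, which had no part in choosing the bins, took different places in the 2 directions. In the 915 bins lower in IFC, mean methylation was 36.8% ± 1.6 (SD, n = 4) in IFC, 56.02% ± 4.88 (n = 5) in SO, 71.1% ± 1.09 (n = 3) in IV and 75.3% ± 2.97 (n = 4) in SOA. In the 412 bins higher in IFC it was 65.7% ± 1.89 in IFC, 55.1% ± 2.64 in SO, 31.5% ± 3.18 in IV and 29.0% ± 0.882 in SOA. IV lay nearer to SOA in 892 of 915 and in 401 of 412 bins. SO lay nearer to IFC in 330 of the bins higher in IFC (80.1%), but in only 438 of the bins lower in IFC (47.9%). Since the bins were chosen for their difference between IFC and SOA, the distances of SO and IV from those groups are a description. The difference between SO and IV is free of that choice: SO was lower than IV (difference -15.05 points) in the first set and higher by 23.6 points in the second (2 two-sided exact permutation tests, p = 0.0179 each). That is the smallest p that 5 against 3 samples allow. All 5 SO samples lay below all 3 IV samples in the first set and above them in the second. SO lay below IV in 845 of the 915 bins (92.4%, against 56.2% of all tested bins) and above IV in 394 of the 412 (95.6%, against 43.8%). IV1 stands apart from the other IV libraries, with 15.3% methylation in unmethylated bins against 7.86% and 7.06%. Without it the differences were -14.5 and 25.4 points (exact p = 0.0476 each, the smallest possible for 5 against 2).

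**Figure D5:**
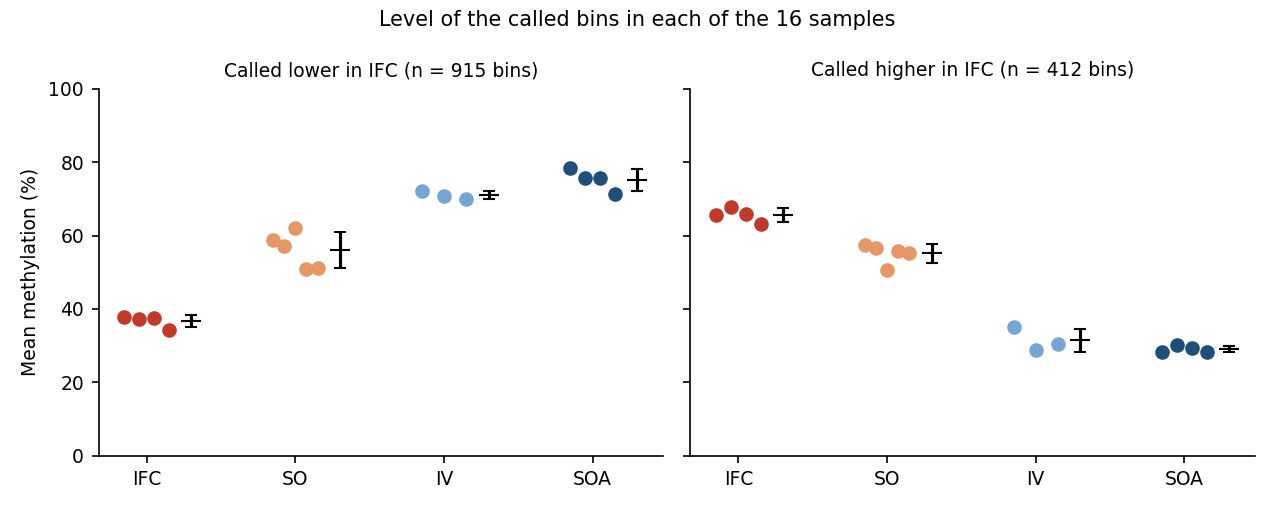
Mean methylation of the 915 bins called lower (left) and the 412 called higher (right) in IFC, in each of the 16 samples. Points are samples, horizontal marks group means and bars 1 SD. IV sits beside SOA in both panels, and SO lies between IFC and IV in the left panel and closer to IFC in the right panel.

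Single genes took different places too. In Msi2, SO (49.5% ± 6.8, n = 5) sat beside IFC (46.2% ± 4.06) and far from SOA (73.8% ± 3.97). In Myo16, SO (67.7% ± 1.22) sat between IFC (52.6% ± 5.16) and SOA (73.7% ± 3.25), nearer to SOA, and in Rims1 and Etl4 it did so as well. Of the 16 named gene bodies, Rbm47 varied most among the SO samples, from 30.9% to 64.4%. On the other side, SO was near IFC in Tcf4 (77.7% ± 1.23 against 82.9% ± 3.19), Zfp521 (59.5% ± 3.19 against 64.7% ± 3.0) and Klf12 (33.3% ± 3.07 against 35.3% ± 2.66). The IV samples of Klf12 held 16.1%, 9.73% and 9.61%, near the SOA samples.

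Gene families were read through 11 lists holding 178 genes, several of them genes that the study itself had picked from these samples (Msi2, Sox5, Cdh13, Tcf4 and Zfp521 among them), so their direction is not independent evidence. By limma no gene body was called in the lists on methylation, the oocyte and the follicle. The counts were 0 of 12 methylation enzymes and readers and 0 of 15 enzymes of histone lysine methylation. They were 0 of 19 tested oocyte-specific and maternal-effect genes and 0 of 19 receptors and growth signals of the follicle. None of these genes overlapped a bin called by 20 points. Over all tested gene bodies 0.399% were called lower and 0.513% higher, a share at which lists of this size hold few or no calls. With weights by calls none of them was called either. Dnmt1, the maintenance methyltransferase, which was picked after the values had been seen, held 92.3% ± 0.88 in IFC and 93.2% ± 2.05 in SOA (SD, n = 4 each). The list medians were -1.56, 0.198, 1.31 and 0.385 points, against 0.499 over all tested genes. Insr, the insulin receptor gene, was 6.70 points lower in IFC (adjusted p = 0.544) and Lhcgr, the LH receptor gene, 4.63 points higher (adjusted p = 0.416). Dppa3, which protects maternal methylation, differed by -23.6 points, but on as few as 26 calls per sample and with SOA samples from 29.4% to 76.5% (adjusted p = 0.413). A CpG-dense region in Tet3, of the same list as Dppa3, was picked after the values had been seen. It held 66.3% ± 10.0 in IFC and 96.0% ± 3.27 in SOA (SD, n = 4 each, difference -29.7 points). It was not called by limma (adjusted p = 0.221) but was called by the logistic model (adjusted p = 1.6e-16).

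Called members fell in 4 of the lists, against 0.399% lower and 0.513% higher over all tested gene bodies. Of 8 E-proteins and zinc-finger factors, 3 were called higher in IFC (Tcf4, Zfp521 and Klf12), none lower, and the list median was 12.9 points. Prdm16, a zinc-finger factor of that list, was 17.1 points higher (adjusted p = 0.165). Among 14 RNA-binding proteins, Rbm47 and Msi2 were lower and Nova1, a splicing regulator, was higher (62.5% ± 0.733 against 38.2% ± 2.26, adjusted p = 0.0325), with a list median of 0.187 points. Of 13 protein kinase C and MAP kinase genes, Mapk10 was lower and Map2k6, a kinase upstream of p38, was higher (50.3% ± 5.42 against 26.2% ± 2.84, adjusted p = 0.0346), with a median of -0.340. Prkcb was 17.9 points lower (adjusted p = 0.107). Of 21 teneurins and axon guidance genes, Sema3a (46.0% ± 1.84 against 20.3% ± 2.45, adjusted p = 0.0142) and Slit2 (39.1% ± 1.83 against 19.3% ± 5.92, adjusted p = 0.0389) were called higher in IFC and none lower, with a median of 1.47. With weights by calls 4 genes of this list were called lower and 5 higher, against 1.14% and 2.71% over all gene bodies. Of its 691 tested bins 17 were called lower and 11 higher by 20 points, against 0.666% and 0.3% of all tested bins. Within this combined list Tenm4, a teneurin, held 6 bins called lower and differed by -15.5 points over its body (adjusted p = 0.0614, not called), while Sema3a held 6 bins called higher.

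No gene body was called among 9 tested SOX factors (median -2.56 points), 19 cadherins and catenins (2.42) and 26 glutamate and GABA receptors (1.37), which is near the share of 0.399% lower and 0.513% higher over all gene bodies. With weights by calls, 1 SOX gene was called lower and 2 higher, 1 cadherin or catenin gene lower and 6 higher, and 0 receptor genes lower and 6 higher, against 1.14% lower and 2.71% higher over all gene bodies in that fit. Bins were called by 20 points inside some of them. Of 138 tested bins in the SOX list, 9 were lower in IFC and 0 higher. For cadherins and catenins it was 10 and 6 of 571, and for the receptors 7 and 5 of 435. Over all tested bins 0.666% were called lower and 0.3% higher. Sox5 held 9 bins lower in IFC, and Cdh13, a cadherin without a transmembrane domain, held 8 of 104. Its gene body was 9.99 points lower (adjusted p = 0.387). Ctnnd2, a catenin gene, was 14.4 points higher (adjusted p = 0.106) with 2 bins called higher. Grin2b, an NMDA receptor subunit named for the count of such bins, held 6 bins lower in IFC, while 3 genes of its list held bins higher in IFC.

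CpG-dense regions showed no call. CpG islands were represented by stretches that hold 50 or more CpGs spaced 20 bp or less on average. Of 14740 such regions, 6043 had at least 10 calls in all 8 samples and were tested, so most were not assessed. Of the 6043 tested, 0 (0%) passed limma's adjusted p of 0.05, and 279 (4.62%) had an unadjusted p below 0.05. The logistic model called 476 and the quasi-binomial F test 2. Most of these regions, 5511, were unmethylated, at 4.09% ± 0.191 in IFC and 4.34% ± 0.232 in SOA (SD, n = 4 each, exact p = 0.171). The 157 methylated regions held 93.1% ± 1.36 and 94.7% ± 0.814 (exact p = 0.0571). The 375 regions in between held 33.6% ± 3.95 and 38.1% ± 3.44 (exact p = 0.143). The largest single difference, chosen after the values were seen, was in Sema5b (chr16:35659304-35660728, 89 CpGs), a transmembrane semaphorin gene. Its region had 98.4%, 100%, 96.4% and 72.2% in IFC and 17.9%, 7.5%, 8.33% and 13.3% in SOA (difference 80.01 points, adjusted p = 0.0641, limma), on as few as 12 calls per sample. The SO samples held 85.7% to 95.7% and the IV samples 9.09% to 36.1%. The next largest difference, also chosen after the values were seen, was a loss in IFC, in Eef2k, an elongation factor kinase gene, with 28.8% ± 20.9 against 93.0% ± 4.77 (SD, n = 4 each, adjusted p = 0.221, limma). Of the regions called by the logistic model, 78 were lower and 30 higher in IFC by at least 20 points.

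No difference was detectable at maternal imprint control regions at the depth available. Only the Peg3 window had 10 or more calls in every sample, with 95.9% ± 3.67 in IFC and 94.5% ± 4.73 in SOA (n = 4 each, exact p = 0.629). Pooled over the 13 windows without Grb10 and Nespas, IFC held 95.01% ± 0.0986 and SOA 96.0% ± 1.17 (difference -1.01 points, exact p = 0.143), on 77 to 757 calls per sample.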

How the data were processed

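DNA methylation was profiled by post-bisulphite adapter tagging (PBAT) of pooled MII oocytes. Per the submitters' processing notes, reads were trimmed with Trim Galore 0.4.4 and cutadapt 1.9.1 and mapped with Bismark 0.19.0 to GRCm38. The authors deposited, for each CpG position, a methylated and an unmethylated call count together with the percent methylated. The percent column deposited by the authors equalled the value from the counts within 0.01 and was not used further. Donors were C57BL/6J X CBA/Ca F1 females, so a C-to-T variant of CBA/Ca would be read as unmethylated.

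Calls were summed over 10-kb autosomal bins, protein-coding gene bodies and CpG-dense regions, keeping features with at least 10 calls in all 8 samples. The percentage of each sample was tested with limma 3.58.1 (R 4.3.3, variance trend, Benjamini-Hochberg threshold 0.05), with samples weighted equally whatever their depth. A further limit of 20 points was applied to bins. Single means used two-sided exact permutation tests over all assignments of the samples. Wilson intervals and the p-values of the logistic and quasi-binomial models came from scipy 1.17.1. The fits were run on simulated data with planted differences well above 20 points, in features of intermediate level. That run does not show how smaller differences are recovered. Labels do not say whether pools came from separate animals in every case, and p-values measure the spread between these samples. Genes were named by rule: the 8 per direction with most called bins, the 3 longest runs, the 5 called bins and the 5 called CpG-dense regions with the largest difference (no dense region was called), and at most 4 members of each of 11 lists, called members first. Besides the genes given, 1 list member that the rule could name is not reported here. The comparison and lists were chosen with earlier results of these data known. Alternatives were the logistic and quasi-binomial models, an arcsine scale, no variance trend, at least 20 calls, bins shifted by 5 kb, thinning to equal depth, reference CpGs only, centred samples, other class limits, regions and windows, a replicate block and leaving out each sample. Weights by calls, classes without IV1 and pooled imprint windows were added after seeing the data.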

Additional observations from a re-analysis of the deposited data

Results flagged for a closer look

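In 5 of 42 groups of 4 samples examined, 1 sample stood apart from the other 3 by Dixon's criterion, which chance alone meets in about 5% of groups. In methylated bins IFC4 held 90.2%, below the other IFC samples at 92.5% to 92.7%. IFC4 was also low in the gene bodies of Sox5, at 28.7% against 36.4% to 37.5%, and Mark1, at 48.2% against 59.9% to 62.3%. SOA1 was high in the body of Msi2, at 79.8% against 71.5% to 72.1%, and SOA2 in the body of Atrnl1, at 36.0% against 31.8% to 32.4%.

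The X chromosome lay outside the comparison. In 3585 bins of the X with at least 10 calls per sample, the mean minus that of the autosomal bins was -1.06, -1.35, -1.51 and -1.86 points in the IFC samples and -2.66, -2.74, -2.75 and -2.40 points in the SOA samples. The groups did not overlap and differed by 1.19 points (exact p = 0.0286 by two-sided permutation, which is the least that 4 samples a group can give). With all calls pooled in place of bin means, the X lay above the autosomes in every sample, by 4.25 to 4.79 points in IFC and by 0.976 to 2.74 points in SOA, and the groups differed by 2.61 points (exact p = 0.0286). The mean of X bins alone did not separate the groups (exact p = 0.229).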

How the results depend on the processing

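Counts of called features depended on the test. In place of 1441 called bins, 915 lower and 412 higher by 20 points, the logistic model gave 15649, 3291 and 1959, the quasi-binomial test 329, 182 and 80, and weights by calls 3499, 1510 and 900. Thinning to equal depth gave 913 called bins and 244 higher, and no variance trend 668 higher. Gene bodies called (151) were 5243 by the logistic model and 636 with weights. CpG-dense regions called (0) were 476 by the logistic model, 2 by the quasi-binomial test, 1 on the arcsine scale, 1 with at least 20 calls and 4 with centred samples. Leaving out 1 sample gave 409 to 957 called bins, 317 to 669 lower, 91 to 290 higher, 11 to 73 gene bodies and 0 dense regions. Of the 409 bins without SOA4, 406 were among the 1441, as were 1437 of the bins of the logistic model and 235 of the quasi-binomial test. The difference of all bins (0.00168 points) turned to -0.0888 with at least 20 calls, -0.0756 when thinned and -0.0493 on reference CpGs, and ran from -0.476 to 0.438 without 1 sample. Without 1 sample, the difference ran from 0.955 to 1.601 points (without SOA1) in unmethylated bins, from -2.22 to -0.276 in intermediate bins, from -0.831 to 0.0602 (without IFC4) in methylated bins and from -0.448 (without SOA1) to 3.26 at the Peg3 window. Pooled imprint windows gave -0.959, or -1.01 without Grb10 and Nespas, in place of 1.41. Imprint windows of 1000 bp on each side gave 0.173. Class limits of 10% and 90% gave -0.639 in place of -1.38 in intermediate bins and -0.192 in place of -0.524 in methylated bins. The causes were not tested.

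Deviations of samples with the same replicate number showed little correlation (0.0166, 0.00751, -0.00261 and 0.0420). Counting error at the depth of these libraries also lowers such correlations, so they cannot tell whether the numbers pair samples. With a replicate block 986 bins were called, 950 of them among the 1441, with 682 lower, 263 higher and 0 gene bodies, on fewer residual degrees of freedom. The 16 named gene bodies kept their sign in all 176 recomputed values. These genes were chosen for their called bins in the same samples, and the replicate block leaves the difference itself unchanged. A kept sign is therefore a description and no test. Median depths of 26 to 41 calls per bin in 7 of the 8 libraries limit the differences a single bin can show.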
